A study of Homo sapiens with 16 samples.

Results

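Isolated genes are genes with wide stretches of sequence on either side in which no other gene is listed, the stretches often called gene deserts. Here a gene counted as isolated when its nearest listed neighbour, on either strand, lay more than 200 kb away, measured between the nearest ends, and when its own span from start to end was under 400 kb. The rule was applied to chromosomes 1 to 6, 8 to 18, 20 and 21 and used positions alone, with no measured expression. It selected 394 of the 15789 genes listed on these chromosomes, or 2.5%, from a table of 19333 genes. Distances count the listed genes only, so an unlisted gene could lie in the gap, and a centromere or an assembly gap counts as distance.

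Total RNA was sequenced after removal of ribosomal RNA from HEK293 cells, a transformed human embryonic kidney line. The scramble group was transfected with a negative control RNA and the Top1 KD group with 10 nM of an siRNA against Top1, with harvest 5 days after the first transfection, and each group holds 2 libraries. The series describes its samples as taken from different passages, but the labels name no separate cultures for these libraries, so p-values measure the spread between 4 libraries of a single cell line. Top1 mRNA and markers of the cell line could not be checked, because the table gives transcript identifiers without gene names. For the same reason genes are given below by chromosome and position (hg19, positions counted from 1).

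DNA topoisomerase I, encoded by TOP1, nicks and reseals DNA to release the supercoils that build up ahead of and behind a moving RNA polymerase. Long transcription units depend on topoisomerase activity more than short ones. Gene deserts often flank genes with roles in development, and the sequence between can hold regulatory elements that act over long distances. The study compared the length and neighbour distance of genes that gained or lost R-loops, which hold an RNA:DNA hybrid, after loss of Top1. It reported that most of these genes were not significantly changed in expression. Isolated genes are the far end of that distance scale, and only their RNA is described here.

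The 394 isolated genes held a median of 331 kb to the nearest neighbour. This distance was over 500 kb for 122 of them and over 1 Mb for 27. On the wider side the median gap was 809 kb, among the 389 genes with a neighbour on both sides, and the wider gap lay upstream of the start in 199 of these and downstream of the end in 190. The remaining 5 lay at the end of a chromosome's listed genes. They were spread over both strands, with 183 on the plus strand and 211 on the minus strand. Their share of the listed genes ran from 0.351% on chromosome 17, with 4 genes, to 6.72% on chromosome 18, with 18 genes. Spans ranged from 0.27 to 397 kb with a median of 52.6 kb, against 22.2 kb for the 15064 other genes of the same chromosomes that also span under 400 kb. These other genes are the comparison used below.

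The limits of the rule fell between genes of many kinds. Just inside the distance limit were a gene of chromosome 16 at 32264040 to 32267240, with a gap of 200.4 kb and no reads, and a gene of chromosome 1 at 198126093 to 198291550, with a gap of 200.8 kb and a mean normalized count of 2700. Just outside it were genes starting at 62.73 Mb on chromosome 2 and at 62.46 Mb on chromosome 14, both with a gap of 199.4 kb and with mean normalized counts of 28.4 and 43.1. Just under the span limit were genes of 397.3 kb on chromosome 4 and 393.0 kb on chromosome 12, and just over it genes of 407.9 kb on chromosome 13 and 421.4 kb on chromosome 4.

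The reads behind each value could be recovered, since in every library 100% of the deposited values came out as whole reads, to within 0.05 of a read, after division by the worth of a single read. The libraries held 15258182 and 18366226 reads on listed genes for scramble and 14681774 and 16503586 for Top1 KD. A gene without reads could still have been present at up to 3 reads, which is 0.163 to 0.204 RPM (reads per 1000000 reads on listed genes) in these libraries, counting error only. Over the isolated genes, reads of replicates departed from sampling noise (chi-square over its degrees of freedom, 8.79 for the scramble pair and 18.1 for the Top1 KD pair).

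Most isolated genes were transcribed in these cells. Reads fell on 263 of the 394 in all 4 libraries and on a further 66 in 1 to 3 libraries. The remaining 65 genes, or 16.5%, were silent, meaning that no read was counted in any library. Among the other genes 19.7% were silent. Only uniquely mapped reads were counted, so a gene with a near-identical copy elsewhere could be listed at 0 while in use, and such genes could not be marked here.

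The silent share did not climb with distance. It was 29.9% of the 2571 genes that overlap a neighbour, 13.0% of the 6650 genes with a neighbour within 10 kb, and 24.5%, 17.9% and 20.9% in the classes of 10 to 50, 50 to 100 and 100 to 200 kb. Isolated genes with 200 to 500 kb to the nearest neighbour were silent in 49 of 272 cases (18.0%), and those with over 500 kb in 16 of 122 (13.1%). The most remote class was therefore about as often silent as genes with a neighbour within 10 kb, and less often than genes that overlap a neighbour. Its genes were also longer, with a median span of 71.4 kb against 19.2 kb in the class within 10 kb. Of the remote genes spanning under 80 kb, 14 of 63 (22.2%) were silent, beside 23.2% of the other genes spanning under 80 kb.

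Span separated silent from transcribed isolated genes far more than distance did. Of the isolated genes under 3 kb, 26 of 41 (63.4%) were silent, against 65.0% of other genes of that span. The share was 23.6% (25 of 106) at 3 to 20 kb, 7.69% (6 of 78) at 20 to 80 kb, 6.80% (7 of 103) at 80 to 200 kb and 1.52% (1 of 66) at 200 to 400 kb. The other genes followed the same steps, at 22.6%, 8.98%, 4.34% and 2.24%. When the other genes were weighted to the spans of the isolated genes, 16.1% were silent, next to 16.5% of the isolated genes. Members are not replicates, so these shares are descriptions and carry no test.

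**Figure D1:**
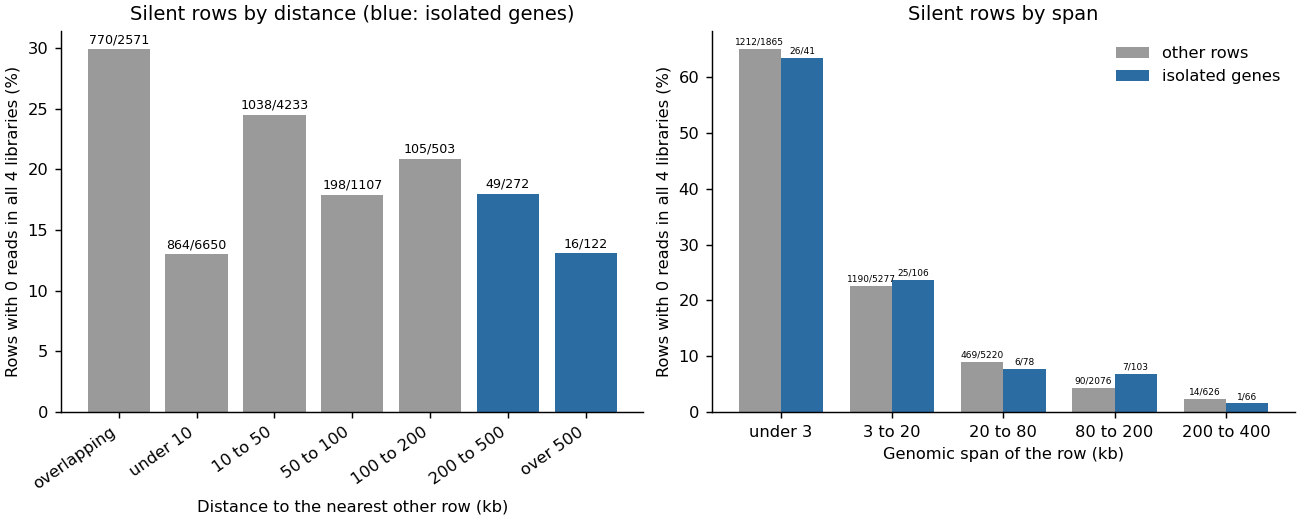
Left, percent of genes with 0 reads in all 4 libraries, by distance to the nearest other listed gene (kb), for genes spanning under 400 kb, with the isolated classes in blue. Right, the same percent by genomic span (kb) for isolated and other genes, where the isolated genes go from 63.4% under 3 kb to 1.52% at 200 to 400 kb beside a like fall in the other genes. Numbers over the bars are silent genes over all genes of the class.

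Silent isolated genes occurred on each of the 19 chromosomes of the rule, most often on chromosome 9, where they made up 9 of 26. There were 108 places where the next listed gene after an isolated gene was itself isolated, and both were silent at 5 of these while a single member was silent at 36. These counts were not set against a chance level and say nothing about whether neighbours share silence.

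The genes farthest from any other listed gene had few reads. The most remote, on chromosome 21 at 10906741 to 10990882 with 3.75 Mb to its neighbour, had 5 and 0 reads in scramble and 16 and 7 in Top1 KD. The next, on chromosome 11 at 40135753 to 40315664 (3.02 Mb), had 2 and 4 reads in scramble and 0 in both Top1 KD libraries. A gene on chromosome 16 at 61681146 to 62070739 (2.91 Mb) had 12 reads in Top1 KD replicate 2 and 0 in the other 3 libraries. These counts are too low for a comparison of groups. The gene on chromosome 13 at 64320934 to 64321323 (2.32 Mb), which spans 0.39 kb, was silent. The gene on chromosome 14 at 85996488 to 86095034 (2.30 Mb) was the only one of these 5 with more than 20 reads in any library. Its normalized counts were 124 and 277 in scramble and 159 and 224 in Top1 KD, and the groups overlapped.

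Above 10 normalized counts, isolated genes were spread over classes of counts much as other genes were, and more of them lay under 10. Shares here are of all genes, silent ones included. The mean normalized count over the 4 libraries was at least 1000 for 90 isolated genes (22.8%, against 23.1% of other genes). It was 100 to 1000 for 112 (28.4% against 31.0%) and 10 to 100 for 57 (14.5% against 13.4%). It was above 0 but under 10 for 70 (17.8% against 12.7%). These counts are not divided by transcript length, so they rank genes by reads and not by transcripts per cell.

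The gene with the most reads stood on chromosome 12 at 67663061 to 67713731, 329 kb from its neighbour. Its normalized counts were 8979 and 9872 in scramble and 9788 and 9427 in Top1 KD, and the groups overlapped (log2 fold change 0.03 ± 0.09 SE, adjusted p = 0.867 by limma). The gene with the second most reads, on chromosome 6 at 93949738 to 94129244, lay 1.90 Mb from any other. It gave 8555 and 9419 in scramble and 7830 and 7936 in Top1 KD, so both Top1 KD values were lower, but the difference did not pass the test (log2 fold change -0.19 ± 0.09 SE, adjusted p = 0.182). The other 8 of the 10 genes with the most reads had means from 4940 to 5890 normalized counts. Of these, the genes on chromosome 9 at 82186688 to 82340414 (4783 and 5042 against 7542 and 6190) and on chromosome 1 at 61547980 to 61928465 (4151 and 4934 against 7232 and 6340) were higher in both Top1 KD libraries. Both passed at the adjusted p by limma (0.00701 and 0.00228), with changes of 1.39-fold and just under 1.5-fold that fell short of the limit used for a call. They were not alone in passing. The gene on chromosome 2 at 185463093 to 185804219 had a log2 fold change of 0.29 (adjusted p = 0.0445 by limma). The gene on chromosome 11 at 32112450 to 32127301 was lower in both Top1 KD libraries, with 6091 and 5569 against 4433 and 4783 (adjusted p = 0.0271 by limma). These changes were also short of 1.5-fold. None of the 10 genes with the most reads was called.

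The number of isolated genes with at least 1 read did not separate the groups. Scramble had 289 and 298 such genes and Top1 KD had 289 and 300 (exact permutation test over the 4 libraries, two-sided p = 1.0). Reads were seen in Top1 KD only for 18 genes and in scramble only for 19, with at most 17 and 14 reads in all. Such genes were not counted among the other genes.

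The reads that fell on isolated genes made up a larger part of the Top1 KD libraries. They amounted to 16516 and 16881 RPM in scramble and 18557 and 18200 in Top1 KD, with means of 16700 ± 258 (SD, n = 2) and 18380 ± 253 (SD, n = 2), a ratio of 1.10. The groups did not overlap. With 2 libraries on each side the exact permutation test, two-sided, has 0.33 as its smallest p, which is the value found. In bulk RNA a larger share cannot be told apart from a smaller total on all other genes, nor more RNA in each cell from more cells that express a gene.

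The difference lay on the long isolated genes. Those of 200 to 400 kb took 4020 and 4170 RPM in scramble and 5350 and 5040 in Top1 KD, a ratio of 1.27, and those of 80 to 200 kb took 5200 and 5400 against 6180 and 5900, a ratio of 1.14. In neither class did the groups overlap (exact permutation p = 0.33 in each, the smallest possible). Reads were not summed for other genes of these spans. Their median log2 fold changes were above 0 as well, at 0.17 for 200 to 400 kb and 0.08 for 80 to 200 kb. Isolated genes of 20 to 80 kb took 3970 and 4030 against 4040 and 3960, and those of 3 to 20 kb 3260 and 3220 against 2860 and 3230, and in both classes the groups overlapped. The genes under 3 kb took 69.1 and 70.7 against 124 and 71.7, where a single gene on chromosome 17 in Top1 KD replicate 1 made the difference. Without that gene they took 65.1 and 67.4 against 67.8 and 71.6.

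**Figure D2:**
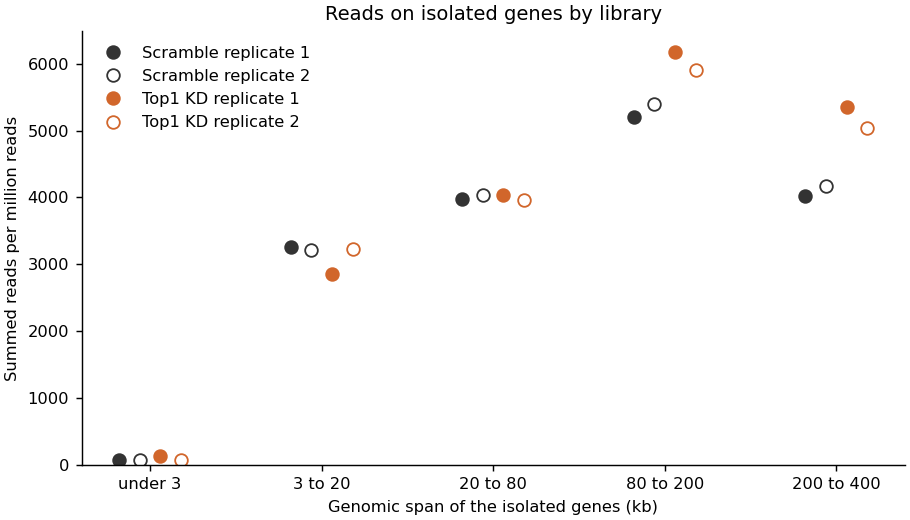
Summed reads on isolated genes, as RPM of the reads on all listed genes (vertical axis), by genomic span of the isolated genes (kb), with a point for each of the 2 scramble (dark) and 2 Top1 KD (orange) libraries. Both orange points lie above both dark ones at 80 to 200 kb and at 200 to 400 kb, and overlap them at 3 to 20 and 20 to 80 kb.

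For single genes, limma was fitted to log2(normalized count + 1) of the 13086 genes of the whole table that reached 10 normalized counts in 2 or more libraries. The added 1 shrinks the change of a gene with few reads. Calls required a change of at least 1.5-fold together with a Benjamini-Hochberg adjusted p under 0.05, taken over all genes tested. Of the 394 isolated genes 265 could be tested, and 129 did not reach the minimum. Among those tested 26 were called, or 9.81%, where 8.15% of all genes tested were called. The isolated genes divided into 18 that rose and 8 that fell with Top1 KD, which is 6.79% and 3.02%, beside 3.88% and 4.26% of all genes tested. Their median log2 fold change was 0.04, with quartiles of -0.24 and 0.41, beside a median of 0.01 in the other genes. The number of calls depended on the library left out. It fell without scramble replicate 1 or 2 or Top1 KD replicate 1, and grew without Top1 KD replicate 2. Calls among the other genes moved the same way in each of these fits.

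The gene with the largest rise lies on chromosome 3 at 81538850 to 81811312 (ENST00000429644), spans 272 kb and has 1.72 Mb to its nearest neighbour. Scramble gave 348 and 395 normalized counts and Top1 KD gave 1043 and 972. Both Top1 KD values were more than 2 times the higher scramble value, and the gene rose 2.71-fold (log2 fold change 1.44 ± 0.17 SE, adjusted p = 9.19e-05).

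The second largest rise was in a much shorter gene, of 28.9 kb, on chromosome 5 at 111064509 to 111093421 (ENST00000379671). It had 742 and 616 normalized counts in scramble and 1538 and 1685 in Top1 KD, which is 2.38-fold (log2 fold change 1.25 ± 0.14 SE, adjusted p = 9.10e-05). This gene and a gene of 26.6 kb on chromosome 4 at 105389469 to 105416051 were the shortest isolated genes that rose. The latter gave 97.1 and 123 against 177 and 326 normalized counts, with Top1 KD replicate 2 well above replicate 1, and lost its call in 3 of the 4 fits that left out a library (adjusted p up to 0.256).

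Next in size came 3 genes of 121 to 152 kb. The gene on chromosome 8 at 92967203 to 93115454 gave 299 and 373 normalized counts in scramble and 832 and 721 in Top1 KD (2.32-fold, adjusted p = 0.000723). On chromosome 3 the gene at 192514604 to 192635950 gave 426 and 442 against 1073 and 821 (2.16-fold, adjusted p = 0.000760). On chromosome 14 the gene at 26915095 to 27066960, with 1.40 Mb to its neighbour, gave 127 and 161 against 314 and 301 (2.14-fold, adjusted p = 0.0121). In all 3 the lower Top1 KD library lay clearly above the higher scramble library, and the first and second kept their call whichever library was left out.

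Rises of under 2-fold included genes with more reads. The gene on chromosome 9 at 13105703 to 13279589 had 2178 and 2244 in scramble and 3631 and 3607 in Top1 KD, a rise of 1.64-fold (adjusted p = 0.000417). A gene on chromosome 1 at 164528872 to 164821068 had 1604 and 1395 against 2856 and 2074, a rise of 1.63-fold (adjusted p = 0.00443). Both pairs of values lay close together in the first, and the second kept its call in 2 of the 4 fits that left out a library. On chromosome 2 the gene at 181845112 to 181928150, of 83.0 kb, gave 878 and 909 against 1520 and 1597, again with both pairs close together (1.74-fold, adjusted p = 0.000901).

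The other 6 of the 15 largest rises were of 1.68-fold to 1.95-fold, on chromosomes 1, 2, 3, 4 and 12. They included the longest gene that rose, of 393 kb on chromosome 12 at 72666463 to 73059422, with 120 and 170 normalized counts in scramble and 305 and 241 in Top1 KD (adjusted p = 0.0421). It lost its call whichever library was left out, and so did the gene on chromosome 12 at 60083118 to 60176395, with 120 and 107 against 219 and 224. The remaining 3 of the 18 rises were of 1.54-fold to 1.60-fold. In all 18 genes that rose, both Top1 KD libraries lay above both scramble libraries, which the thresholds of the call nearly require.

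The largest fall was in a gene of 42.9 kb on chromosome 5 at 95726119 to 95768984 (ENST00000311106). It had 182 and 137 normalized counts in scramble and 15.2 and 34.9 in Top1 KD, a fall of 6.61-fold (log2 fold change -2.73 ± 0.52 SE, adjusted p = 0.00287). Both Top1 KD libraries were far below scramble but differed from each other by more than 2 times. The second, also on chromosome 5 at 17217669 to 17276943 (ENST00000322611), had 331 and 373 against 122 and 133, a fall of 2.74-fold with both pairs close (log2 fold change -1.46 ± 0.26 SE, adjusted p = 0.00194).

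The smallest isolated genes that changed all fell. A gene of 4.36 kb on chromosome 18 at 57567180 to 57571538 had 1730 and 1405 normalized counts in scramble and 510 and 640 in Top1 KD. It fell 2.73-fold (log2 fold change -1.45 ± 0.16 SE, adjusted p = 6.54e-05) and was the only one of the 8 falls that kept its call whichever library was left out. Genes of 4.98 kb on chromosome 13, 3.30 kb on chromosome 6 and 3.11 kb on chromosome 3 fell by 1.89-fold, 1.65-fold and 1.59-fold, and their groups did not overlap either. The gene of 3.30 kb, at 19837617 to 19840915, was the best measured of these, with 1336 and 1213 against 725 and 820 (adjusted p = 0.00332).

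The other 2 falls were in a gene of 78.3 kb on chromosome 4 at 139085251 to 139163503 and a gene of 172 kb on chromosome 3 at 64501490 to 64673676. The first gave 818 and 631 normalized counts in scramble and 344 and 343 in Top1 KD (2.09-fold lower, adjusted p = 0.00177). The second gave 970 and 711 against 371 and 636, so Top1 KD replicate 2 lay only just below scramble replicate 2, and it kept its call in 1 of the 4 fits that left out a library (adjusted p up to 0.367). This was the only fall among isolated genes of over 80 kb.

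**Figure D3:**
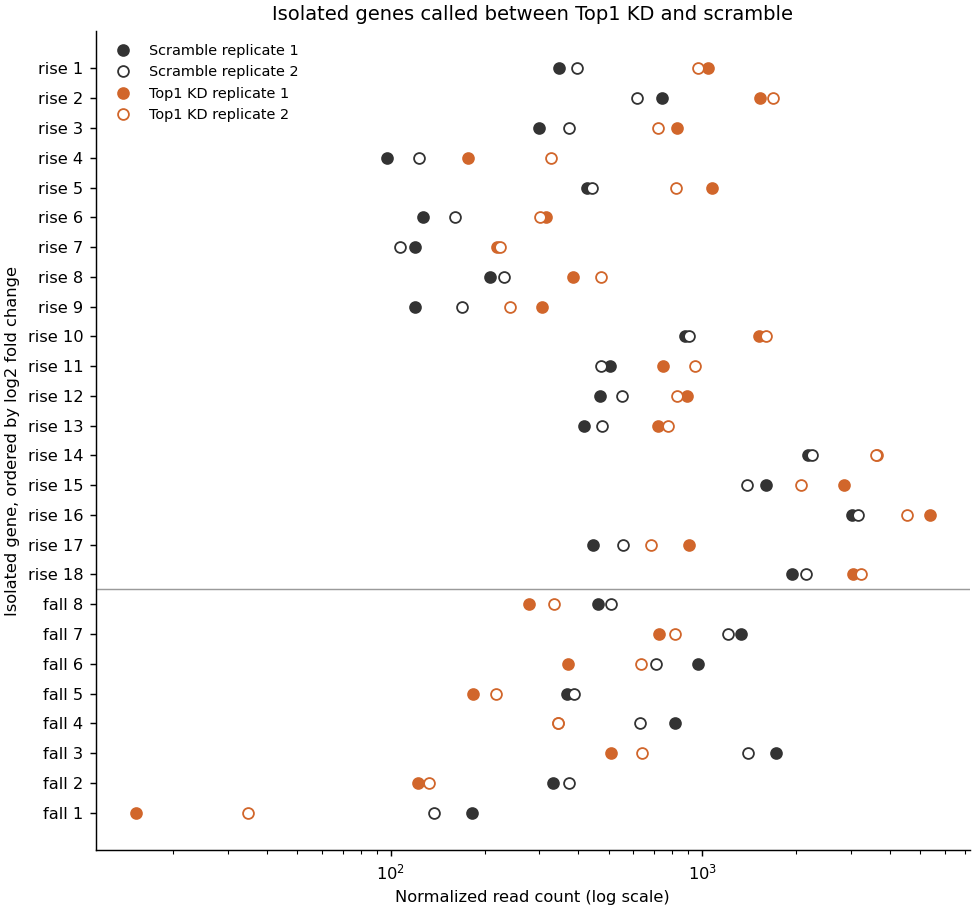
Normalized read counts (log scale) of the 26 isolated genes called, 1 line for each gene, with filled and open points for replicates 1 and 2 of scramble (dark) and Top1 KD (orange). Genes are ordered by log2 fold change from the largest rise (rise 1, chromosome 3 at 81.54 Mb) to the largest fall (fall 1, chromosome 5 at 95.73 Mb), and in no gene do the 2 groups overlap.

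The genes that rose were long. Their median span was 163 kb, and 15 of 18 spanned over 80 kb, whereas the 8 that fell had a median span of 23.9 kb and 4 of them spanned under 5 kb. The 239 tested genes that were not called had a median span of 80 kb. Among the other genes the medians lay closer together, at 36.6 kb for rises, 26.8 kb for falls and 32.4 kb for genes not called.

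By span class, the share of isolated genes called higher was 0 of 9 under 3 kb, 0 of 63 at 3 to 20 kb, 3 of 58 (5.17%) at 20 to 80 kb, 7 of 80 (8.75%) at 80 to 200 kb and 8 of 55 (14.5%) at 200 to 400 kb. Among other genes of the same spans it was 2.17%, 3.52%, 3.26%, 4.48% and 6.68%. Falls were seen in 0 of 9 under 3 kb, 4 of 63 (6.35%) at 3 to 20 kb, 3 of 58 (5.17%) at 20 to 80 kb, 1 of 80 (1.25%) at 80 to 200 kb and 0 of 55 at 200 to 400 kb. Among other genes falls made up 5.54%, 4.64%, 3.8%, 3.44% and 2.64%. With the other genes weighted to the spans of the isolated genes tested, 4.37% rose and 3.71% fell, beside 6.79% and 3.02% of the isolated genes. Each isolated share rests on few genes and was not tested against the others.

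**Figure D4:**
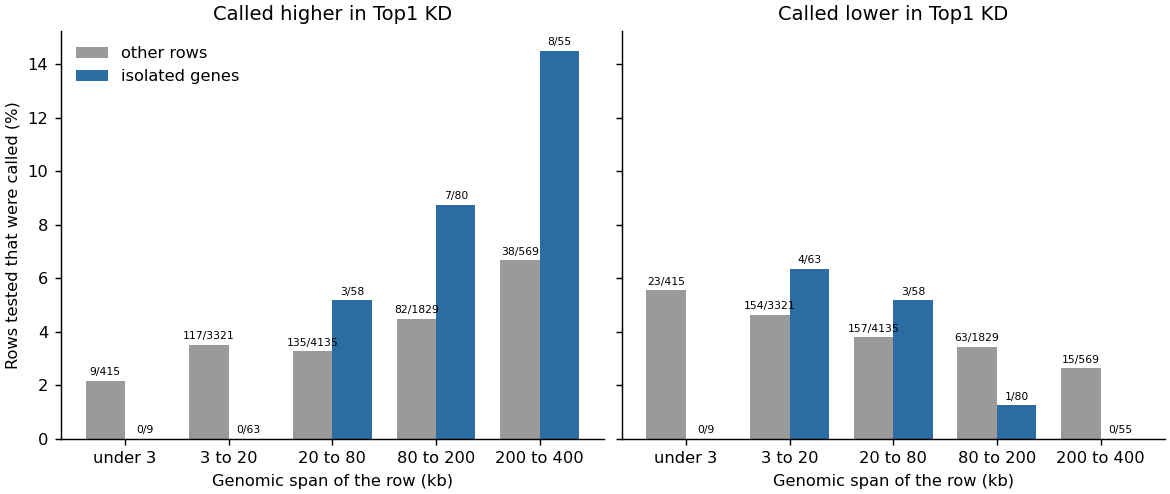
Percent of tested genes called higher (left) or lower (right) in Top1 KD, by genomic span (kb), for isolated (blue) and other genes (grey), with called over tested genes printed above each bar. The isolated genes called higher go from 0 of 63 at 3 to 20 kb to 8 of 55 at 200 to 400 kb.

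The median log2 fold change was above 0 in the long classes only. For isolated genes it was -0.03 under 3 kb, -0.09 at 3 to 20 kb, -0.07 at 20 to 80 kb, 0.13 at 80 to 200 kb and 0.29 at 200 to 400 kb, so the 3 shorter classes did not follow an order by span. For other genes it was -0.12, -0.04, -0.02, 0.08 and 0.17. Both Top1 KD libraries lay above both scramble libraries for 29 of the 55 longest isolated genes (52.7%, against 45.3% of other genes of that span and 28.8% of all genes tested). Top1 KD replicate 1 itself leaned towards long genes relative to replicate 2 among the other genes, by a median log2 difference from -0.17 under 3 kb to 0.12 at 200 to 400 kb. Among isolated genes this difference was -0.36 under 3 kb, -0.18 at 3 to 20 kb and 0.04 at 200 to 400 kb. Without Top1 KD replicate 1 their median log2 fold change turned from -0.03 to 0.30 under 3 kb (9 genes). At 3 to 20 kb it turned from -0.09 to 0.02, so the sign in the classes under 20 kb rested on that library. At 20 to 80 kb the median stayed below 0, at -0.06 without Top1 KD replicate 1. At 200 to 400 kb it was 0.32 without Top1 KD replicate 1 and 0.29 without replicate 2.

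**Figure D5:**
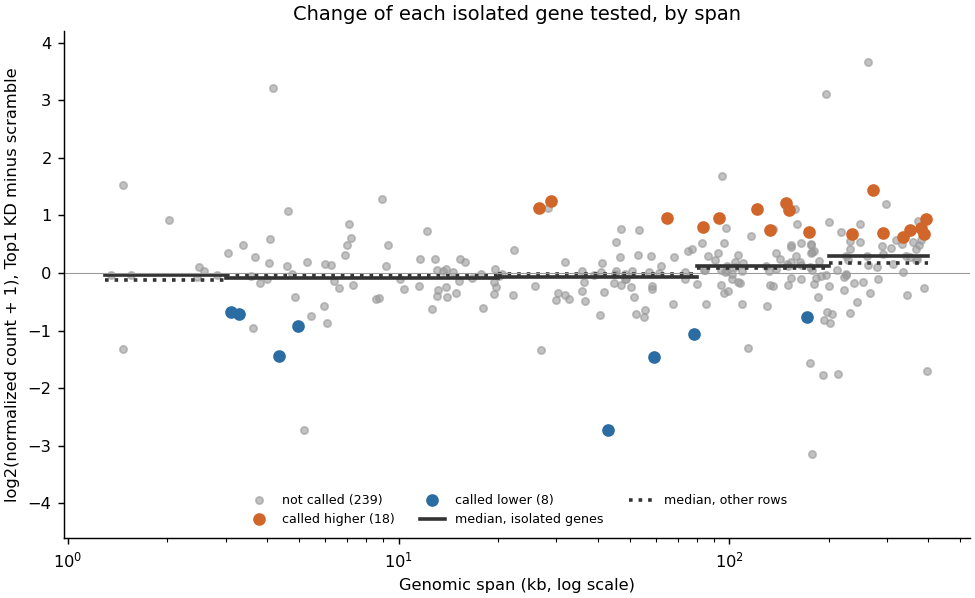
Log2 fold change of the normalized count plus 1, Top1 KD minus scramble, against genomic span (kb, log scale) for the 265 isolated genes tested, with the 18 rises in orange and the 8 falls in blue. Solid and dotted lines are class medians of isolated and other genes, and the solid line reaches 0.29 at 200 to 400 kb.

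Taking all isolated genes of over 80 kb together, 15 of the 135 tested rose (11.1%) and 1 fell (0.741%), where 5.0% and 3.25% of the 2398 other genes of that span rose and fell. The 2 sets are not matched for span, with medians of 177 kb for isolated and 132 kb for other genes. The isolated share of rises was the higher of the pair in each reduced set of libraries, at 5.93% against 1.21% without scramble replicate 1, 6.67% against 2.04% without scramble replicate 2, 5.93% against 1.38% without Top1 KD replicate 1 and 13.3% against 7.38% without Top1 KD replicate 2. These sets share libraries and are not independent of each other. The low share of falls did not hold in all of them. Without Top1 KD replicate 2, 6 of the 135 isolated genes fell (4.44%), above the 3.29% of other genes, while in the other 3 sets 0 or 1 of them fell.

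Distance beyond the limit of 200 kb gave a less steady picture in the shares called. Among isolated genes of over 80 kb, 8 of 45 (17.8%) rose where the nearest neighbour was over 500 kb away and 7 of 90 (7.78%) where it was 200 to 500 kb away. The remote share was not the higher one without scramble replicate 1 or 2, and was the higher one without Top1 KD replicate 1 or 2. The order of shares by distance thus depended on the scramble libraries. The median log2 fold change in these classes was 0.29 and 0.14. It was 0.22 and 0.13 without scramble replicate 1, and 0.29 and 0.16 without scramble replicate 2. Without Top1 KD replicate 1 it was 0.32 and 0.14, and without replicate 2 it was 0.28 and 0.16. For isolated genes under 80 kb the medians over all libraries were -0.10 and -0.02. These differences were not tested.

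Isolated genes next to each other were also set side by side. Of the 47 neighbouring pairs in which both genes were tested, 23 had differences of the same sign, and in none were both genes called. With 9.81% of the isolated genes tested called, such pairs would be rare in any case. The wider gap lay upstream of the start in 10 of the 18 genes that rose and in 5 of the 8 that fell, so neither group kept to a side.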

How the data were processed

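Total RNA-seq of HEK293 cells was analysed in 2 scramble and 2 Top1 KD libraries, and the series' samples of other assays were not analysed here. The authors trimmed single-end reads with fastq-mcf and kept uniquely mapped reads. TopHat2 2.0.5, HTSeq, DESeq2 and hg19 are taken from the submitters' processing notes, and strand use in counting is not given in the sources used here. The values the authors deposited are a signal, the reads of each gene over the library's DESeq2 size factor, not scaled for length. The authors also deposited their own comparison (a log2 fold change and its error, a test score, a call and the p-value before and after adjustment), of which nothing was used. All 4 columns of per-library values were assigned by the sample labels.

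Positions were read as 1-based, since all 13 mitochondrial genes of the table have the start and end of a RefSeq mitochondrial gene. Span is the distance from start to end. The 19333 identifiers matched 0 keys of the name and sequence tables used here, so lists by gene name, cell type markers and sequences are not reported.

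Reads were recovered by division by the value of 1 read. limma 3.58.1 (trend) in R 4.3.3 was fitted over the whole table, on log2 of the normalized count plus 1, and tested on simulated data. edgeR 4.0.16 and DESeq2 1.42.0 on the recovered reads, other scalings, filters, pseudocounts, folds and limits of the rule, a replicate term and the omission of each library were alternatives. Where a library was left out, its group's lone library was assumed to vary like the other group. Single values over libraries used an exact permutation test with Python 3.11.15. The weighting by span, and the alternatives for shares by span and distance, were chosen after seeing the data. Named genes were up to 15 called genes in each direction by size, the 10 with the most counts, the 5 farthest from any neighbour and those next to each limit of the rule. The members, classes and lists were chosen with earlier results of these data known.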

Additional observations from a re-analysis of the deposited data

How the results depend on the processing

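The 26 calls among isolated genes became 26 with edgeR, 28 with DESeq2, 29 with library-size scaling, 24 without a filter on low values, 27 at a minimum of 20 normalized counts, and 26 with a pseudocount of 0.1 or 5. All 26 genes were also called by edgeR and by DESeq2. With edgeR, DESeq2 and library-size scaling in turn, 11.1%, 12.6% and 13.3% of isolated genes of over 80 kb rose. The shares of other genes were 4.84%, 5.21% and 5.71%. Under 80 kb, 2.31% of isolated genes rose with each, against 3.37%, 3.35% and 3.84% of other genes. Falls over 80 kb made up 0.741% with each, against 3.29%, 3.25% and 3.09%. Under 80 kb they made up 5.38%, against 4.45%, 4.41% and 3.84%. A 2-fold limit left 10. No share over all genes is given here for that limit, the filters or the pseudocounts. No fold limit gave 44 of the 265 isolated genes tested, beside 1937 of all 13086 genes tested. Over the fits that left out a library there were 11 to 39 calls, lowest without scramble replicate 1. With neighbours over 100 kb away instead of 200 kb there were 45 calls among 597 genes tested (5.19% rose and 2.35% fell). With neighbours over 500 kb away there were 12 among 90 (11.1% rose and 2.22% fell). Of all genes tested, 3.88% rose and 4.26% fell. The counts at other distances come from longer or shorter lists of genes.

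Same-numbered libraries showed no shared deviation from their group means, with a correlation of -0.01 across genes. This cannot settle whether the libraries were paired by passage or culture, which the labels do not say. The fit with the replicate block gave 27 calls, for which no share over all genes is given here. The median log2 fold change of isolated genes was 0.040 and ran from 0.026 to 0.101 over the fits that left out a library, highest without Top1 KD replicate 1, and the cause was not tested. With silent defined as under 10 normalized counts in every library, 26.4% of isolated genes were silent instead of 16.5%. Isolated genes with a read differed by 1 between the groups, and by -4.5 to 6.5 when a library was left out, which is -3.5 without scramble replicate 1 and -4.5 without Top1 KD replicate 2. Of the 34 single genes followed under the alternatives, none changed direction while called. The gene on chromosome 1 at 61.55 Mb was called with library-size scaling and without scramble or Top1 KD replicate 2, and the gene on chromosome 9 at 82.19 Mb without Top1 KD replicate 2.

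With 2 libraries for each group, genes with few reads could not be compared, and 129 isolated genes were not tested.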

Other observations

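Some isolated genes had their reads in a single library. Of the 30 with reads in 1 library only, 15 had at least 5 reads there and 8 had at least 10, up to 17 reads. Among the other genes with reads in 1 library only, 47.7% had at least 5 and 16.3% at least 10. An isolated gene of 1.55 kb on chromosome 17 at 22.02 Mb, chosen after its values were seen, had normalized counts of 66.2 and 53.7 in scramble and of 898 and 2.91 in Top1 KD, the widest gap between replicates among isolated genes under 3 kb.

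Reads in both libraries of a group and in neither of the other occurred for 7 isolated genes, 3 in Top1 KD and 4 in scramble, with at most 15 reads in all for any of them. A gene of 158 kb on chromosome 5 at 26880709 to 27038693, which lies 2.24 Mb from its neighbour, had 3 and 11 reads in Top1 KD and 0 in scramble. A gene of 152 kb on chromosome 8, starting at 36.64 Mb, had 5 and 7 reads in scramble and 0 in Top1 KD. These reads are too few for a comparison. The other genes were not counted in this way, so it is not known whether 7 is usual for genes with few reads.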
